A study of Mus musculus with 77 samples.

Results

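Myb, Myc, Mycn, Mxd1 and Sox4 encode transcription factors, and all 5 are genes of a deposited table of mouse enhancers. Their members here are every enhancer that the table assigns to one of them, 79 of 44002 enhancers, together with the genes' own expression values, 5 of 10096 genes. Myb has 35 enhancers, Myc 5, Mycn 5, Mxd1 12 and Sox4 22. The rule takes them by gene symbol.

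MYB is a DNA-binding activator that keeps progenitors dividing and is shut off as they mature. MYC and its relative MYCN bind E-boxes as partners of MAX and drive ribosome production, metabolism and cell division. MXD1 competes for the same partner, MAX, and represses the same sites, and it is known for appearing when myeloid cells stop dividing. SOX4 is an HMG-box factor of the SOXC group that is active in immature cells and in leukaemia, and its locus is known as a place where CEBPA, the main factor of granulocyte fate, acts as a repressor. H3K27ac is a histone mark of active enhancers and promoters, H3K4me1 a mark found at enhancers whether active or poised, and PU.1 a factor that opens myeloid enhancers.

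The cells were sorted from fresh mouse bone marrow. The study followed the path from multipotent cells to granulocytes and monocytes and asked what loss of CEBPA does to it. Wild-type samples labelled CFU-G, CFU-M and monocytes belong to it too and were not used here. The groups used are preGM from CEBPA KO animals and, from wild-type animals, LSK cells (Lin-, Sca-1+, ckit), preGM (Lin-, Sca-1-, ckit+, CD150-, CD105-), GMP (Lin-, Sca-1-, ckit+, CD150-, FcgRII/III+) and granulocytes (Mac1+Gr-1+). LSK cells are stem and multipotent progenitors, preGM cells and the GMP that follow them are committed to granulocytes and monocytes, and no treatment was given. The labels name neither the knockout allele nor a Cre driver, a strain or an age. H3K27ac and H3K4me1 were given in all 5 groups, PU.1 in all but granulocytes, and CEBPA in wild-type preGM. Each of these 15 columns holds 1 signal value per enhancer for a group with 2 libraries in the labels, so no difference below has a replicate error or a test. Depth behind the values is unknown.

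Expression has 6 columns, 4 of them by stage and a separate pair for KO and wild-type preGM. The sources used here do not say which RNA libraries made them. The 2 sets are on different scales: Myc is listed at 463 in the preGM column of the stage set and at 2812 in the wild-type preGM column of the pair, and Sox4 at 1454 and 145 in the same columns. Values are therefore compared within a set only, except in the first ranking of genes by profile below. Levels are never compared between genes, since the sources do not say whether gene length is accounted for.

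Markers of the granulocyte path differed between the sorted stages. By at least 2-fold, expression was higher in preGM than in LSK cells for 5 of 5 genes of primary granules, against 3.26% of all genes. It was higher in granulocytes than in GMP for 8 of 8 genes of mature neutrophils, against 14.9% of all genes. Of 8 stem and early progenitor genes, 6 were at least 2-fold lower in GMP than in preGM, against 5.42% of all genes. The mature neutrophil genes summed to 320 in LSK cells, 1872 in preGM, 4477 in GMP and 56077 in granulocytes. Some markers of other cells differed at the last step too, where 14.9% of all genes were at least 2-fold higher and 24% lower. Of 3 measured T and NK cell genes, 2 were higher in granulocytes than in GMP, Cd3d with 180 in granulocytes and 17.7 in GMP and Gata3 with 27.4 in granulocytes and 8.93 in GMP, and 1 was lower, Nkg7, with 205 in granulocytes and 1785 in GMP. The erythroid gene Klf1 was listed at 167 in granulocytes and 64.1 in GMP, 1 of 4 megakaryocyte genes was higher, Gp9, with 103 in granulocytes and 45.4 in GMP, and 0 of 2 B cell genes passed 2-fold. The part of these cells in the granulocyte values below was not tested. In the genotype pair, Cebpa itself was listed at 48.3 in KO preGM and at 208 in wild-type preGM. These are bulk samples, in which fewer cells of a type and less RNA per cell cannot be told apart.

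RefSeq promoter windows of 300 bases were given for Myb, Mycn, Mxd1 and Sox4. They were searched on both strands for CACGTG, the E-box of MYC and MAX, GAGGAA, the core of the PU.1 motif, ATTGC, a half-site of C/EBP factors, and AACNGNC, a MYB motif. Of all 32851 windows, 7.15% held CACGTG, 28.3% GAGGAA, 26.4% ATTGC and 32.8% AACNGNC. The Sox4 and Mxd1 windows are shown because these genes differ most between early and late stages, in opposite directions, and because only they hold any match. The capitals in the Sox4 window (GRCm38.p6, chr13:28953650-28953949, minus strand) mark ATTGC at positions -141 and -122 from the start site and GAGGAA at -72. The capitals in the Mxd1 window (GRCm38.p6, chr6:86669110-86669409, minus strand) mark 1 MYB match, AACCGGC, at -146.
Sox4: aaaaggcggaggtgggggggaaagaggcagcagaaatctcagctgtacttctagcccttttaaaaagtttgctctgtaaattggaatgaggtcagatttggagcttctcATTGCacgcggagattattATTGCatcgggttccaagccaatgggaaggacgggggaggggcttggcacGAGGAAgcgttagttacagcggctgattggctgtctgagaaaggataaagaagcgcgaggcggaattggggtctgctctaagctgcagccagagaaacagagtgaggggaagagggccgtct
Mxd1: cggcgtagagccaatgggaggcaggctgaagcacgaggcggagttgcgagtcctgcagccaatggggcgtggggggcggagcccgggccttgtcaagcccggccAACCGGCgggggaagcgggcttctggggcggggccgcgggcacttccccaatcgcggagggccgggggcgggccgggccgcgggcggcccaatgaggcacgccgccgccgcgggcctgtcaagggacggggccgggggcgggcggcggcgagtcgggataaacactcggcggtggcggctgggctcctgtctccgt
The Myb and Mycn windows held none of the 4 motifs. A match is a run of letters and not a measured site, and the windows are on another build than the enhancers.

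Along the 4 stages the 5 genes followed 3 patterns of expression. Myb was listed at 4048 in LSK cells, 5375 in preGM, 7230 in GMP and 769 in granulocytes. It was high through the progenitors, highest in GMP, and 9.40-fold lower in granulocytes than in GMP (log2 ratio -3.23). Myc was listed at 326 in LSK cells, 463 in preGM, 301 in GMP and 118 in granulocytes, with its highest value in preGM and a log2 ratio of -1.34 between granulocytes and GMP. Myb and Myc thus shared the low value in granulocytes but not the stage of their highest value.

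Mycn and Sox4 were lower already in GMP. Mycn was listed at 186 in LSK cells, 202 in preGM, 26.1 in GMP and 43.2 in granulocytes, a log2 ratio of -2.91 between GMP and preGM. Of all genes, 0.238% had a lower ratio at that step. Sox4 was listed at 1546 in LSK cells, 1454 in preGM, 326 in GMP and 57.5 in granulocytes. It was lower at both late steps, with log2 ratios of -2.15 between GMP and preGM and -2.48 between granulocytes and GMP.

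Mxd1, the antagonist of MYC at MAX, stood alone in the other direction. It was listed at 150 in LSK cells, 138 in preGM, 143 in GMP and 5611 in granulocytes. The progenitor values lie close together, and the granulocyte value is 39.3-fold that of GMP (log2 ratio 5.29), a ratio above that of 99.7% of genes.

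Counted at a fold of at least 2, none of the 5 genes differed between preGM and LSK cells, where 3.26% of all genes were higher and 1.4% lower. Between GMP and preGM 2 were lower, Mycn and Sox4, and none higher, against 5.42% of all genes lower and 4.33% higher. Between granulocytes and GMP 3 were lower and 1 higher, against 24% of all genes lower and 14.9% higher. A pseudocount of 0.25 in place of 1, or subtracting the median of all genes left these counts as they were.

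**Figure D1:**
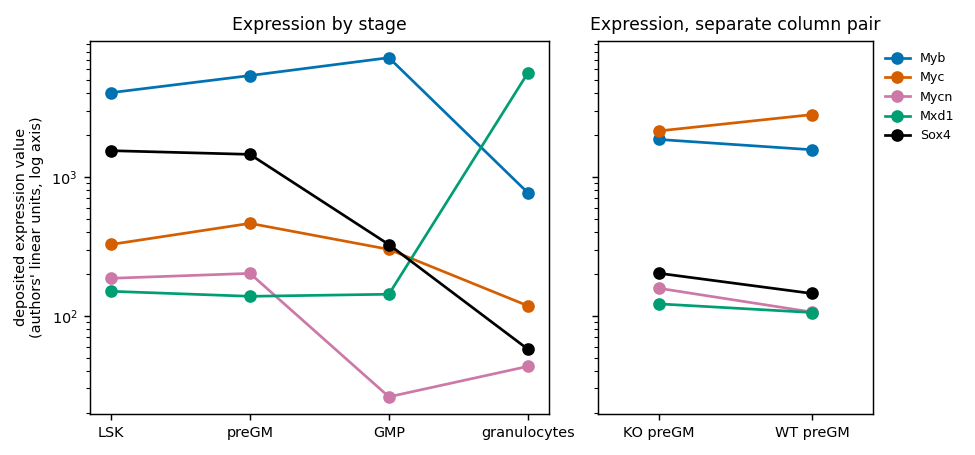
Deposited expression values of the 5 genes on a log axis, by stage (left) and in the separate pair of preGM columns (right); each point is 1 deposited value for a group, with no replicates. Myb ends at 769 and Mxd1 at 5611 in granulocytes, while Mycn and Sox4 are already low in GMP.

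The enhancers of each gene lie in loci of very different size. Positions are those of the deposited table, in build mm9, and no mm9 annotation was used here, so exons, introns and promoters are not assigned. The 35 Myb enhancers cover chr10:20783769-20916468, 133 kb, more enhancers than 99.6% of genes have. They form 3 groups separated by gaps of more than 10 kb, with 11, 19 and 5 enhancers. The 22 Sox4 enhancers are spread over chr13:28648739-29043479, 395 kb, in 8 such groups. Myc (chr15:61815218-61820515, 5.30 kb), Mycn (chr12:12945090-12949442, 4.35 kb) and Mxd1 (chr6:86611052-86619520, 8.47 kb) each have 1 compact group. No enhancer of another gene lies inside any of the 5 spans. Median widths run from 208.5 bases at Sox4 to 290 at Myb. The narrowest enhancers of Myb (48 bases), Myc (23), Mxd1 (34) and Sox4 (43) are all among those past 2-fold below. The part of width in their ratios was not tested.

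Most of these enhancers carry no factor in the authors' classes of bound factors. No factor is listed for 57 of the 79 (72.2%), against 59.5% of all enhancers. PU.1, alone or with CEBPA, is listed for 15.2%, against 28.3% of all. CEBPA, alone or with PU.1, is listed for 19.0%, against 21.5% of all, and for 25.7% of the Myb enhancers. The authors' stage class includes granulocytes for 17.7% of the member enhancers and for 42.5% of all. By gene, Sox4 has 0 of 22 enhancers in a class with granulocytes, Mycn has 0 of 5, Mxd1 has 6 of 12 and Myc has 3 of 5. The criteria of these classes are not given in the sources used here, and no test was run on them.

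The active mark H3K27ac followed a different course at each locus. Ratios below are log2 ratios with a pseudocount of 0.7 for H3K27ac, 2 for H3K4me1 and 0.6 for PU.1 added to both signals, and an enhancer is counted when they differ by at least 2-fold. Between preGM and LSK cells 1 of 79 was higher and 0 lower, against 0.72% and 0.364% of all enhancers. The 1 is the strongest Myb enhancer, at chr10:20879318-20879449, with a signal of 12.5 in preGM and 4.25 in LSK cells. In preGM it exceeded 99.6% of all enhancers.

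Between GMP and preGM 9 of 79 were higher and 0 lower, against 9.21% and 0.411% of all enhancers. These were 5 of Myb, 2 of Myc and 2 of Sox4. All enhancers together had a median log2 ratio of 0.29 at this step; with that median subtracted, 3 were higher, 1 of Myb and 2 of Sox4, and 3 lower, all of Mycn. The share of members past 2-fold was thus close to that of all enhancers.

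Among the Myb enhancers the one with the highest ratio at that step, at chr10:20876682-20876834, had an H3K27ac signal of 2.68 in GMP and 0.471 in preGM (log2 ratio 1.53). The authors class it as bound by CEBPA, and its CEBPA signal in wild-type preGM was 2.11. The highest ratios at Sox4 were at 2 neighbouring enhancers, at chr13:28849591-28849823 with 4.16 in GMP and 0.904 in preGM and at chr13:28850379-28850445 with 3.11 in GMP and 0.547 in preGM. Sox4 expression was lower in GMP at the same step. Granulocytes had only 0.982 and 0.720 at these 2 positions, so that the signal peaked in GMP.

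Between granulocytes and GMP the loci parted. Of the 79 enhancers 18 were lower and 4 higher, against 6.05% and 14.1% of all enhancers. All 5 Myc enhancers, 8 of 35 at Myb and 5 of 22 at Sox4 were lower, all 4 that were higher belong to Mxd1, and none at Mycn passed 2-fold. With a pseudocount of 2.8 in place of 0.7 the counts were 6 lower and 1 higher. The median log2 ratio was -2.16 at Myc, -0.40 at Myb, -0.59 at Sox4, 0.04 at Mycn and 0.83 at Mxd1, against 0.14 over all enhancers.

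At Myc, H3K27ac at chr15:61816111-61816187 was 2.03 in LSK cells, 2.94 in preGM, 7.22 in GMP and 0.460 in granulocytes. At chr15:61816874-61816897 it was 3.31 in LSK cells, 4.11 in preGM, 9.09 in GMP and 0.822 in granulocytes. The enhancer with the highest mean signal, at chr15:61819212-61819473, had 3.67 in LSK cells, 7.76 in preGM, 7.84 in GMP and 1.22 in granulocytes. All 3 had their lowest value in granulocytes, and the first had the lowest log2 ratio of the 79, -2.77. Myc expression was highest in preGM, whereas H3K27ac at these 3 enhancers was highest in GMP. At the third the GMP and preGM values were close, at 7.84 and 7.76. Of the 5 Myc enhancers 4 had more H3K27ac in GMP than in preGM and 1 had less.

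At Myb the lowest ratios were at a pair of enhancers. At chr10:20879318-20879449 H3K27ac was 4.25 in LSK cells, 12.5 in preGM, 18.6 in GMP and 2.71 in granulocytes. At chr10:20880227-20880275 it was 3.65 in LSK cells, 6.25 in preGM, 10.5 in GMP and 1.02 in granulocytes. Both lie at the high-coordinate end of the middle group. In LSK cells, preGM and GMP they stand far above the median of all 35, which was 0.77, 0.64 and 1.28 in these stages. In granulocytes that median was 0.74, and the second of the pair was below the highest value of the first group, 1.59. The remaining 6 lower enhancers had between 1.92 and 3.06 in GMP, and 4 of them belong to the first group of 11.

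At Sox4 the strongest enhancer, at chr13:29042913-29043479, had an H3K27ac signal of 2.90 in LSK cells, 5.15 in preGM, 4.09 in GMP and 0.267 in granulocytes. Its log2 ratio between granulocytes and GMP was -2.31, the lowest of the locus. In granulocytes only 0.7% of all enhancers had a lower signal.

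At Mxd1 every one of the 12 enhancers had more H3K27ac in granulocytes than in GMP. The highest ratios were at chr6:86617353-86617732, with 4.58 in granulocytes and 0.720 in GMP, and at chr6:86616829-86617108, with 4.67 in granulocytes and 0.990 in GMP. The strongest enhancer, at chr6:86619143-86619520, had 2.25 in LSK cells, 2.93 in preGM, 4.33 in GMP and 8.18 in granulocytes. It was already the most acetylated of the locus before the gene's expression was high, and it has PU.1 and CEBPA in the authors' class.

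**Figure D2:**
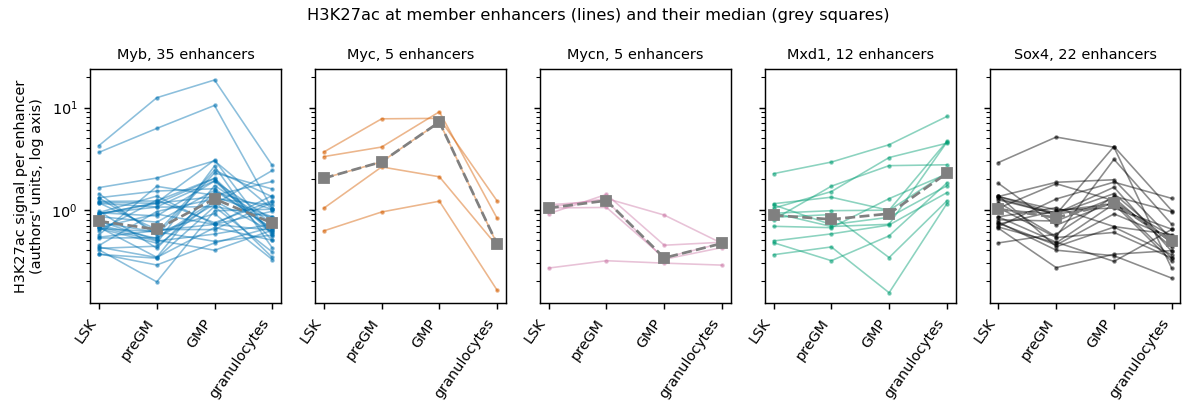
H3K27ac signal of every enhancer of the 5 genes by stage on a log axis; thin lines are single enhancers, grey squares are the median of the gene's enhancers, and each value is 1 deposited number per group. The Myc median is highest in GMP, at 7.22, and is 0.46 in granulocytes, where the Mxd1 median is 2.27.

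H3K4me1 differed little before the last step. Between preGM and LSK cells 0 of 79 were 2-fold higher or lower, against 0.00227% and 0.00682% of all enhancers, and between GMP and preGM also 0, against 0.855% higher and 0.00227% lower. Between granulocytes and GMP 10 were higher and 11 lower, against 9.69% and 2.81% of all enhancers. The higher ones were 6 of Mxd1, 2 of Myb and 2 of Myc, and the lower ones 9 of Sox4 and 2 of Mycn. The median of all enhancers was 0.32 at this step; with it subtracted the split was 8 higher and 26 lower.

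At Sox4 the enhancers counted as lower in H3K4me1 in granulocytes lay in the part of the locus with the higher coordinates. In the group of 7 enhancers at chr13:29035440-29043479 the median H3K4me1 signal was 3.33 in LSK cells, 3.40 in preGM, 3.19 in GMP and 0.55 in granulocytes, and 5 of the 7 were counted as lower. In the group of 4 at chr13:28929507-28935349 it was 4.04 in LSK cells, 3.74 in preGM, 3.87 in GMP and 0.72 in granulocytes. Groups at lower coordinates than these varied and held none counted as lower. The pair at chr13:28708629-28709541 had a median of 3.39 in granulocytes and 3.47 in GMP, while the single enhancer at chr13:28755609-28755907 had 0.155 in granulocytes and 1.62 in GMP (log2 ratio -0.75). The 3 enhancers at chr13:28849591-28851004 had a median log2 ratio of -0.55. The lowest log2 ratio was -1.38, at chr13:28976842-28976885, with 0.784 in granulocytes and 5.22 in GMP.

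At Mycn the 2 marks took opposite courses between preGM and GMP. Their median H3K4me1 signal was 1.91 in LSK cells, 3.10 in preGM, 4.98 in GMP and 1.73 in granulocytes, with its peak in GMP. Their median H3K27ac signal was 1.04 in LSK cells, 1.23 in preGM, 0.34 in GMP and 0.47 in granulocytes. GMP is thus the stage of the highest median H3K4me1, the lowest median H3K27ac and the lowest Mycn expression. The H3K27ac signals of the 5 enhancers summed to 2.30 in GMP and 2.13 in granulocytes, so by sum granulocytes had the least. No single enhancer differed 2-fold in either mark between GMP and preGM. With the median of all enhancers subtracted, H3K27ac passed 2-fold at 3 of the 5, at log2 ratios of -1.20 at chr12:12948037-12948270, -1.05 at chr12:12948675-12948922 and -1.17 at chr12:12949280-12949442.

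Mxd1 had more H3K4me1 in granulocytes over 6 enhancers at one end of its locus, all 6 that the authors class as granulocyte enhancers. The highest ratio was at chr6:86612402-86612436, with 11.1 in granulocytes and 0.607 in GMP (log2 ratio 2.33). The other 5 had between 6.0 and 9.25 in granulocytes and between 0.747 and 3.35 in GMP. The enhancers with the highest H3K27ac ratios lie at the other end and hardly differed in H3K4me1: at chr6:86617353-86617732 it was 4.41 in granulocytes and 4.30 in GMP.

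At Myb and Myc some enhancers had opposite differences in the 2 marks. H3K27ac was at least 2-fold lower and H3K4me1 at least 2-fold higher in granulocytes than in GMP at 4 of 79 enhancers, 2 of Myb and 2 of Myc, against 0.795% of all enhancers. At the Myb pair H3K4me1 was 10.6 in granulocytes and 1.26 in GMP at chr10:20879318-20879449, and 10.4 in granulocytes and 1.37 in GMP at chr10:20880227-20880275. At Myc it was 10.4 in granulocytes and 1.60 in GMP at chr15:61816874-61816897, and 14.8 in granulocytes and 4.11 in GMP at chr15:61819212-61819473. The last exceeded 99.5% of all enhancers in granulocytes. Both marks were higher at 2 enhancers of Mxd1, against 4.13% of all, and both lower at 2 of Sox4, against 0.282%. With the median of all enhancers subtracted in each mark, 0 had both higher and 7 both lower, since the H3K27ac ratios of the 2 Mxd1 enhancers were then 0.97 and 0.87. With pseudocounts 4 times larger the count with opposite marks was 1.

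**Figure D3:**
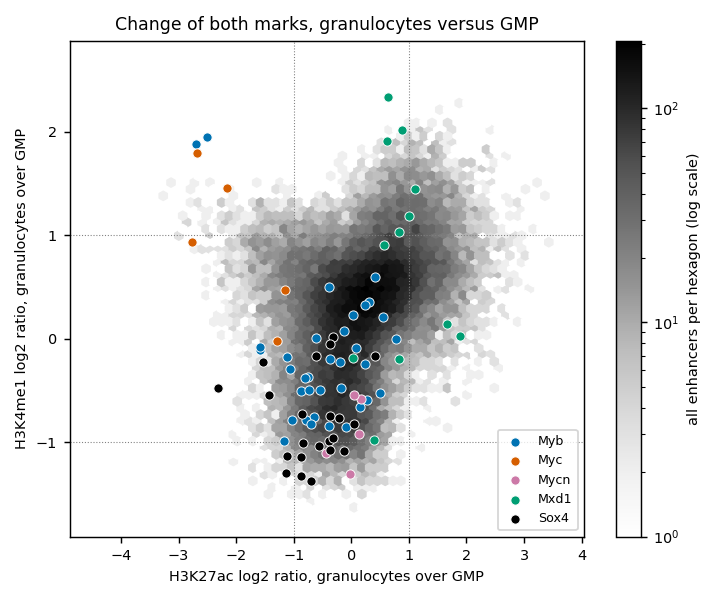
Log2 ratio of H3K27ac (x) and H3K4me1 (y) in granulocytes over GMP; points are the 79 enhancers coloured by gene, hexagons count all 44002 enhancers on a log scale, and dotted lines mark 2-fold. The Myb pair and 2 Myc enhancers sit at the upper left, several Mxd1 enhancers at the upper right and most Sox4 enhancers below the horizontal zero.

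PU.1 was strong at a few enhancers of Mxd1, Sox4 and Myb. At Mxd1 the 2 highest were chr6:86616287-86616499, with 10.9 in LSK cells, 16.9 in preGM and 9.31 in GMP, and chr6:86619143-86619520, with 9.48 in LSK cells, 12.1 in preGM and 9.73 in GMP. Both had high PU.1 in LSK cells, where Mxd1 expression was low. Between preGM and LSK cells 5 of 79 enhancers had at least 2-fold more PU.1 and 0 less, against 6.56% and 0.0364% of all enhancers.

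Of these 5, 4 belong to Sox4. The highest ratio among them was at chr13:28708629-28709215, with 12.5 in preGM and 4.69 in LSK cells (log2 ratio 1.30), followed by chr13:28935120-28935349 with 10.3 in preGM and 3.90 in LSK cells. The Myb enhancer at chr10:20805858-20806451 had a higher ratio, 1.39, from a signal of 1.21 in preGM and 0.089 in LSK cells. With the median of all enhancers subtracted, 0.30, 2 of the 5 were still counted. Between GMP and preGM 1 Myb enhancer was higher and 1 Sox4 enhancer lower, against 0.768% and 0.775% of all.

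CEBPA binding in wild-type preGM was low at most members, with a median signal of 0.45 over the 79 and 0.53 over all enhancers. One Myc enhancer stood out, at chr15:61815218-61815737, with 6.55, above 99.7% of all enhancers. Its H3K27ac was the lowest of the Myc locus at every stage, at 0.621 in LSK cells, 0.950 in preGM, 1.21 in GMP and 0.163 in granulocytes. The next highest were chr10:20876682-20876834 at Myb with 2.11 and chr6:86619143-86619520 at Mxd1 with 2.05.

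**Figure D4:**
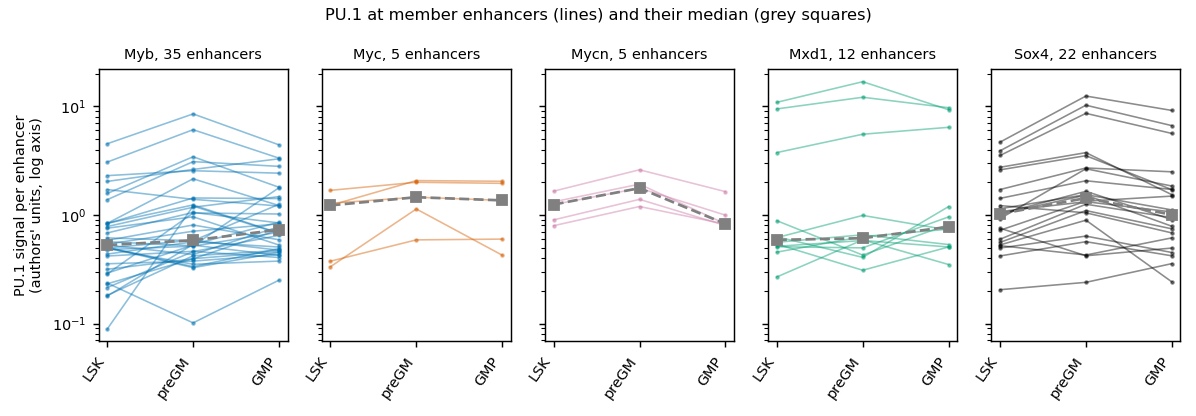
PU.1 signal of every enhancer of the 5 genes in LSK cells, preGM and GMP on a log axis; thin lines are single enhancers, grey squares the median of the gene's enhancers, and each value is 1 deposited number per group. At Mxd1 3 enhancers lie far above the other 9, and at Sox4 the 3 strongest peak in preGM.

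In KO preGM the 5 genes' expression stayed within 2-fold of wild-type preGM, and the highest ratio was that of Mycn. Mycn was listed at 158 in KO preGM and 106 in wild-type preGM (log2 ratio 0.56), a ratio above that of 98.1% of genes. Sox4 was listed at 202 in KO preGM and 145 in wild-type preGM (log2 ratio 0.48), above 97.4% of genes. Myb (1862 in KO and 1570 in wild-type preGM) and Mxd1 (122 in KO and 106 in wild-type preGM) had ratios of 0.25 and 0.20. Myc alone was lower, with 2146 in KO preGM and 2812 in wild-type preGM (log2 ratio -0.39), and 5.63% of genes had a lower ratio. None of the 5 passed 2-fold, against 0.466% of all genes higher and 0.644% lower.

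H3K27ac was at least 2-fold higher in KO than in wild-type preGM at 3 of 79 enhancers and lower at 0, against 0.441% and 0.47% of all enhancers. All 3 belong to Mycn. The signal was 1.72 in KO and 0.317 in wild-type preGM at chr12:12945090-12945327, 4.41 in KO and 1.29 in wild-type preGM at chr12:12947712-12947814, and 3.83 in KO and 1.23 in wild-type preGM at chr12:12948037-12948270. Of the remaining 2, one had 1.94 in KO and 1.05 in wild-type preGM and the other 1.01 in KO and 1.41 in wild-type preGM. The KO values of the 3 were above those in each of the 4 wild-type stages. With a pseudocount of 2.8 in place of 0.7, 0 of the 3 were counted.

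At Sox4 the strongest enhancer, at chr13:29042913-29043479, had 7.10 in KO and 5.15 in wild-type preGM, which is below 2-fold. Over the 22 Sox4 enhancers the median log2 ratio was 0.08, against 0.05 over all enhancers. It was 0.12 at Myb, -0.41 at Myc and -0.09 at Mxd1. H3K4me1 differed 2-fold at 0 of 79 enhancers, against 0% of all enhancers higher and 0.00909% lower, the Mycn enhancers included.

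PU.1 was at least 2-fold lower in KO than in wild-type preGM at 4 of 79 enhancers and higher at 0, against 6.15% and 0.0955% of all enhancers. At Myb the lowest ratios were at 2 neighbours that the authors class as bound by PU.1 and CEBPA. PU.1 was 2.17 in KO and 8.53 in wild-type preGM at chr10:20803451-20803619 (log2 ratio -1.72), and 1.55 in KO and 6.10 in wild-type preGM at chr10:20804017-20804117 (log2 ratio -1.64). In both, KO preGM had less PU.1 than LSK cells, which had 4.53 and 3.07. Their H3K27ac was 1.34 and 0.837 in KO preGM, and 1.18 and 1.22 in wild-type preGM.

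The enhancer at chr13:28708629-28709215 was the 1 of Sox4, with PU.1 at 4.76 in KO and 12.5 in wild-type preGM, and its LSK value was 4.69. At Mxd1 the strong PU.1 enhancer at chr6:86616287-86616499 had 9.48 in KO and 16.9 in wild-type preGM, which is below 2-fold. Mycn had no PU.1 enhancer past 2-fold in this comparison. The share of members with less PU.1 was near that of all enhancers.

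Myeloid and stem markers also differed in the same pair of expression columns. By at least 2-fold, 4 of 5 primary granule genes were lower in KO preGM, against 0.644% of all genes, with a sum of 4823 in KO and 9520 in wild-type preGM. Monocyte genes were lower at 4 of 6, with a sum of 425 in KO and 2738 in wild-type preGM. Mature neutrophil genes were lower at 3 of 8, with a sum of 363 in KO and 1565 in wild-type preGM. Stem and early progenitor genes were lower at 2 of 8, with a sum of 3285 in KO and 5026 in wild-type preGM. Of the measured markers of B cells (2), T and NK cells (3), erythroid cells (1) and megakaryocytes (4), 0 passed 2-fold in either direction. The part of cell composition in the values of Mycn, Sox4 and Myb was not tested.

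**Figure D5:**
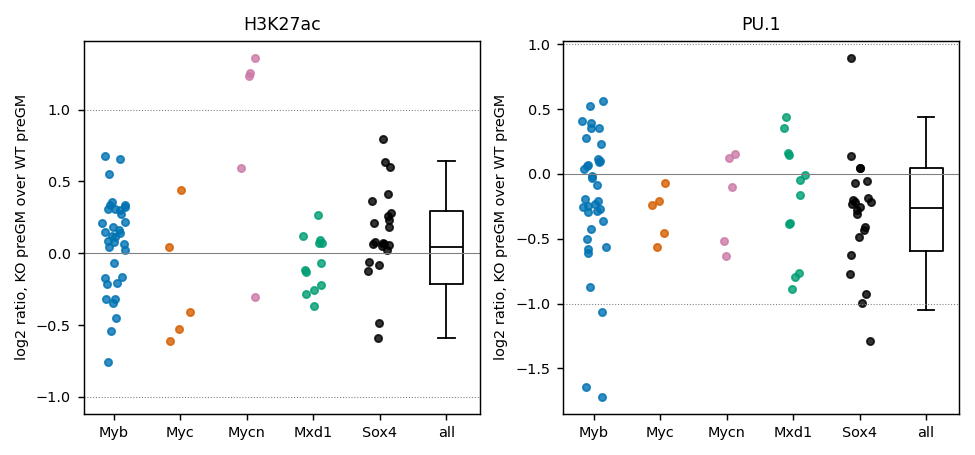
Log2 ratio of H3K27ac (left) and PU.1 (right) in KO over wild-type preGM for each enhancer, by gene; the box runs from the lower to the upper quartile of all 44002 enhancers, its line is the median, whiskers run from the 5th to the 95th percentile, and dotted lines mark 2-fold. The 3 Mycn enhancers lie above 1 for H3K27ac, and 3 of Myb and 1 of Sox4 lie below -1 for PU.1.

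Partners and known targets of these factors were followed in lists of genes. The MYC network list holds 17 measured genes, the partner MAX, the other MXD-type repressors and cofactors. In granulocytes over GMP 1 was at least 2-fold higher and 2 lower in expression, against 14.9% and 24% of all genes, and their median log2 ratio was -0.36, against -0.17 over all genes. The one that was higher, Mxi1, encodes another repressor that pairs with MAX and was listed at 1079 in granulocytes and 374 in GMP. Mycbp, which encodes a MYC-binding protein, was listed at 84.0 in granulocytes and 502 in GMP, and Mga, a MAX partner, at 99.0 in granulocytes and 299 in GMP. At the step from preGM to GMP 1 was higher, Mycbp, and 1 lower, Mxd4, against 4.33% and 5.42% of all genes.

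Of 19 known MYC targets, 16 were at least 2-fold lower in granulocytes than in GMP and 1 higher, against 24% and 14.9% of all genes, with a median log2 ratio of -2.05. Nop56, a ribosomal RNA processing factor, was listed at 121 in granulocytes and 3113 in GMP, and Gnl3, the nucleolar protein nucleostemin, at 98.2 in granulocytes and 1963 in GMP. The one that was higher was Ldha, lactate dehydrogenase, with 4283 in granulocytes and 1411 in GMP. H3K27ac at each gene's strongest enhancer was at least 2-fold lower at 13 of the 19 and higher at 0, against 12.4% and 11.6% of all genes. At the strongest enhancer of Srm, spermidine synthase, it was 1.60 in granulocytes and 13.8 in GMP. By the same measure 7 of the 19 were higher in GMP than in preGM, against 17.7% of all genes higher and 0.475% lower, and 2 were higher in preGM than in LSK cells, against 1.54% higher and 0.485% lower. Between KO and wild-type preGM none of the 19 passed 2-fold in expression, against 0.466% of all genes higher and 0.644% lower, and their median log2 ratio was -0.16.

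Of 12 genes known as MYB targets, 9 were lower and 1 higher in expression in granulocytes than in GMP, against 24% and 14.9% of all genes, with a median log2 ratio of -2.87. Most of these 9 are also on the primary granule or the stem list above. Cd34, a surface protein of progenitors, was listed at 19.1 in granulocytes and 603 in GMP, and Ets1, the one that was higher, at 379 in granulocytes and 112 in GMP. At the strongest enhancers of the 12, H3K27ac was lower at 9 and higher at 2, against 12.4% and 11.6% of all genes. Between KO and wild-type preGM 4 of the 12 were lower in expression, against 0.644% of all genes, namely Ctsg (190 in KO, 2096 in wild-type), Flt3 (118 in KO, 536 in wild-type), Elane (53.1 in KO, 213 in wild-type) and Prtn3 (99.2 in KO, 366 in wild-type). Ctsg, Elane and Prtn3 encode granule proteases and are also on the primary granule list, and Flt3 encodes a cytokine receptor and is also on the stem list. H3K27ac at the strongest enhancer was lower in KO than in wild-type preGM at 3 of the 12, Ctsg, Flt3 and Gata2, and higher at 0, against 0.396% and 0.505% of all genes. The Myb value itself was higher in KO preGM. Of 3 measured relatives of MYB and SOX4, 1 passed 2-fold in expression, lower in granulocytes than in GMP, against 24% of all genes. It was Mybl2, a MYB relative of dividing cells, with 34.9 in granulocytes and 71.6 in GMP. H3K27ac at the strongest enhancer was lower in granulocytes than in GMP at 2 of the 3, against 12.4% of all genes. It was 0.258 in granulocytes and 4.22 in GMP at Sox12, and 1.56 in granulocytes and 4.65 in GMP at Mybl2. Between GMP and preGM 1 was higher, Mybl2, against 17.7% of all genes.

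Genes of like profile were ranked by the root mean square difference of log2 expression, centred on each gene's mean, over the 6 columns and 8546 genes that varied by at least 1 log2. Among the closest to Myb were Farsb (0.15), Dus3l (0.18), Fam82a2 (0.18) and Srsf1 (0.19). Closest to Myc were Ndufa4 (0.16), Heg1 (0.20), Ubap2 (0.23), Lyrm4 (0.25) and D14Abb1e (0.27), and closest to Mycn were Cnrip1 (0.23), Rilpl1 (0.29), Capn5 (0.38), Capn2 (0.40) and Calcrl (0.41). Closest to Mxd1 were Fcgr4 (0.20), Cd300lf (0.26), Tex15 (0.29), Timp2 (0.29) and AA467197 (0.30), the first of which encodes an Fc receptor of mature myeloid cells. Closest to Sox4 were Aff3 (0.30), Dtx3 (0.44), Afap1l1 (0.48), 2810410L24Rik (0.49) and Cxxc5 (0.50). This ranking also takes in the difference in scale between the 2 sets of columns. With each set centred by itself, 2 of the 5 closest genes remained for Mycn, 1 for Mxd1, 1 for Sox4 and 0 for Myb and Myc. The closest to Myb were then Zfp191 (0.058), Dph5 (0.086), Snx5 (0.087), Nmd3 (0.10) and Kdsr (0.10), and the closest to Myc Fam135a (0.058), Vegfc (0.082), Timm10 (0.083), Polh (0.085) and Pold2 (0.093). The closest to Mycn were then Pglyrp2 (0.15), Cnrip1 (0.22), Tspan13 (0.25), Rilpl1 (0.26) and Slc30a4 (0.26), and the closest to Mxd1 Bst1 (0.11), Cd300lf (0.12), H2-Q10 (0.16), Sirpb1a (0.16) and Tnfsf13b (0.16). The closest to Sox4 were then Mmp2 (0.053), Tsc22d1 (0.20), Spns2 (0.21), Gpr171 (0.21) and Aff3 (0.22).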

How the data were processed

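ChIP-seq gave 53 and RNA-seq 24 of the 77 mouse samples in the labels. Values came from a deposited table with 1 value per enhancer and group. Its 15 ChIP columns hold signal that the authors scaled in a way not given in the sources used here; they are not counts, and each matches a group of 2 libraries (30 in all) by assay, stage and genotype. Its 6 expression columns were deposited in a unit not given in the sources used here, read as linear, with 1 value per gene in every row of that gene, and start at 2.04 to 6.59. The labels give RNA libraries in triplicate, but whether these made the columns could not be settled. The other 11 value columns were not used. For RNA-seq the tools named in the submitters' processing notes are STAR, featureCounts and DESeq2, for ChIP-seq they are bedtools, Bowtie2 and MACS2, and the build is mm9.

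Log2 ratios of the first over the second group were computed with Python 3.11.15, pandas 2.3.3 and numpy 2.4.6. The pseudocount was the 25th percentile of an assay's values rounded to its first digit. It was 0.7 for H3K27ac (from 0.65), 2 for H3K4me1 (from 2.44) and 0.6 for PU.1 (from 0.635), and 1 for expression. Enhancers and genes at least 2-fold different (log2 ratio of 1) were counted, with no filter on low values. The steps were checked on simulated data. With 1 value per group there is no test, interval or replicate error. For H3K27ac each gene of a list stands for its strongest enhancer, by mean over the columns.

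The members and the gene lists were chosen with earlier results of these data known. Enhancers named are each gene's strongest by mean H3K27ac and, per assay and comparison, its highest and lowest past 2-fold; others named stood out after their values were seen. Of each list at most 4 genes per comparison are named, those with the largest ratios. One gene of like profile is not reported here. List genes absent from the table were Ruvbl1, Ruvbl2, Sox11, Wdr12 and 8 of the marker genes. Promoter windows came from RefSeq (GRCm38.p6), matched by symbol for 4 of the 5 genes.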

Additional observations from a re-analysis of the deposited data

How the results depend on the processing

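No paired analysis was possible because the table holds 1 value per group, and for the same reason no replicate could be left out. All 8 expression counts under the other settings, and all 20 expression ratios under each, kept direction and side of 2-fold. Pseudocounts 4 times smaller gave these counts of the 79. H3K27ac was higher at 4 and lower at 3 in preGM over LSK, higher at 16 and lower at 4 in GMP over preGM, lower at 30 in granulocytes over GMP, and higher at 6 and lower at 1 in KO over wild-type preGM. H3K4me1 was higher at 3 in GMP over preGM and lower at 27 in granulocytes over GMP. PU.1 was higher at 11 in preGM over LSK, higher at 2 and lower at 4 in GMP over preGM, and higher at 1 in KO over wild-type preGM. Both marks were higher at 4 and lower at 12 in granulocytes over GMP. Pseudocounts 4 times larger gave fewer, by construction. H3K27ac was higher at 0 in GMP over preGM, higher at 1 and lower at 6 in granulocytes over GMP, and higher at 0 in KO over wild-type preGM. H3K4me1 was higher at 2 and lower at 0 in granulocytes over GMP, PU.1 was higher at 2 in preGM over LSK and higher and lower at 0 in GMP over preGM, opposite marks were left at 1, and both marks higher or lower at 0. With the median of all enhancers subtracted, H3K27ac was higher at 3 and lower at 3 in GMP over preGM and higher at 2 in granulocytes over GMP. H3K4me1 was then lower at 26 in granulocytes over GMP, and PU.1 was higher at 2 in preGM over LSK, lower at 0 in GMP over preGM and higher at 1 in KO over wild-type preGM, and both marks were higher at 0 and lower at 7 in granulocytes over GMP. Among enhancers whose higher signal of both groups was at or above the median of that value, H3K27ac was higher at 2 and H3K4me1 lower at 0 in granulocytes over GMP. Enhancers high in granulocytes pass that filter more readily for H3K4me1, whose median over all enhancers was 5.41 in granulocytes and 3.79 in GMP, so the 0 says nothing of how stable the lower calls are. Of the 67 values past 2-fold, all 67 stayed so with smaller pseudocounts, 52 with the median subtracted and 15 with larger pseudocounts, and none changed sign. The result with smaller pseudocounts was fixed in advance, since a smaller pseudocount moves every ratio away from 0. No pseudocount can change the sign of a ratio, here or in expression. Opposite marks, both marks together and the second centring of profiles were settings added after seeing the data. With unknown depth, differences at low signal cannot be told from counting error.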

Other observations

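Within the authors' class of enhancers marked in granulocytes alone, 11 belong to the 5 genes, and they split by locus. Of these 11, 9 had at least 2-fold more H3K4me1 in granulocytes than in GMP, against 37.3% of all 9324 enhancers of the class, while 5 had at least 2-fold less H3K27ac, against 3.29% of the class. The 5 with less H3K27ac are the Myb pair and 3 enhancers of Myc, and the 2 with more are of Mxd1, against 33.4% of the class. How the authors set this class is not stated, and it may rest on the same marks.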
